A study of Mus musculus with 10 samples.

Results

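Krüppel-like factors (KLFs) are transcription factors with zinc fingers at the carboxyl terminus that bind GC-rich and CACCC sequences. *Klf2*, *Klf4* and *Klf5* belong to the naive pluripotency network of mouse embryonic stem cells (ESCs), where leukemia inhibitory factor (LIF) acts through STAT3 on *Klf4*. Other members recruit corepressors and are known for roles in differentiation and metabolism. H3K4me3, trimethylation of lysine 4 of histone H3, marks the promoters of active and poised genes, and broad domains of it often lie at genes that define a cell's identity. The promoters of 10 KLF genes were followed here: *Klf2*, *Klf4*, *Klf5* and *Klf6*, which mainly activate transcription, *Klf3* and *Klf12*, which recruit the corepressor CtBP, and *Klf9*, *Klf10*, *Klf13* and *Klf16*, which recruit SIN3A. They are 10 of 53843 genes with an annotated start on chromosomes 1 to 19 and X. A promoter ran from 1000 bp before to 100 bp after any start of the gene (GENCODE release M21, GRCm38), and a gene with a peak on a promoter was called marked. Of several such peaks, that with the highest total signal was taken.

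Naive extra-embryonic endoderm (nEnd) is a stem cell culture of the primitive endoderm (PrE), the blastocyst layer that forms the yolk sac endoderm. The cells came from an OCT4-mCherry reporter ESC line that had been differentiated to PrE and expanded on fibroblast feeders in RACL, an RPMI medium with Activin A, the GSK3 inhibitor CHIR99021 and LIF. No population had any other treatment. FACS on OCT4-mCherry and on the surface receptor PDGFRA gave Oct4+ nEnd (4 libraries), which are de-differentiated epiblast (Epi)-like cells, double positive (DP) nEnd (3 libraries) and Pdgfra+ nEnd (3 libraries). All come from 1 reporter line, and the labels give a number for each library but no culture of origin, so p-values measure only the spread between these libraries. The study's legend for its signal tracks names fewer biological replicates than the labels give Oct4+ libraries, and exact p-values take all of these as independent.

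CUT&Tag cuts DNA beside an antibody-bound mark with a tethered transposase. The deposited peaks carry a total signal, which is coverage summed over the peak, and a highest coverage. Neither was scaled between libraries and read depth is unknown, so peaks were ranked within their library. A percentile of 95 means that 95% of the library's peaks had the same or a lower value. The libraries held 3477 to 10545 peaks. Oct4+ nEnd replicate 3 held the fewest, and the median peak reached a coverage of 22 to 59 in Oct4+ nEnd against 67 to 144 in the other populations. This gap moves with the population, and its part in the results was not tested. Of 10 Epi markers, 9 were marked in every Oct4+ library and none in every Pdgfra+ library, and of 10 endoderm markers, 9 were marked in every DP and every Pdgfra+ library and none in every Oct4+ library. The summed percentile of the Epi markers was 794 to 961 in Oct4+, 160 to 253 in DP and 0 to 1.07 in Pdgfra+ nEnd. That of the endoderm markers was 0 to 104 in Oct4+, 816 to 833 in DP and 750 to 855 in Pdgfra+ nEnd. In Oct4+ nEnd *Gata6* had a peak in 3 and *Sox17* in 2 of the 4 libraries. Of 15 fibroblast markers, 13 had no peak in any library, among them *Col1a1*, *Col1a2* and *Thy1*. *Twist1* had one in 5 and *Tbx15* in 2 of the 10 libraries, at percentiles of 0.83 to 14.1. Of 8 trophoblast markers, 1 (*Tfap2c*) was marked in every Oct4+ library. In every DP library 4 were marked (*Eomes*, *Gata3*, *Krt8* and *Krt18*), and in every Pdgfra+ library 3 (*Gata3*, *Krt8* and *Krt18*).

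The sequences before the starts of 5 members are given to show 4 marked promoters beside 1 unmarked one. RefSeq promoters (GRCm38.p6, 250 bp before to 50 bp after a start) matched 7 of the 10 members, not *Klf5*, *Klf10* and *Klf16*. Only the bases before the annotated starts are printed, 5′ to 3′ on the gene's strand. Capitals mark the CACCC box (CACCC or its complement GGGTG) and the GC box (GGGCGG or CCGCCC), which can run into each other. *Klf2*, *Klf3* and *Klf9* are shown because their mark was highest in Oct4+ nEnd, *Klf4* because it went the other way, and *Klf12* because the start in the table, inside the gene, had no peak in any library.
Klf2 (chr8:72318812-72319032, plus strand): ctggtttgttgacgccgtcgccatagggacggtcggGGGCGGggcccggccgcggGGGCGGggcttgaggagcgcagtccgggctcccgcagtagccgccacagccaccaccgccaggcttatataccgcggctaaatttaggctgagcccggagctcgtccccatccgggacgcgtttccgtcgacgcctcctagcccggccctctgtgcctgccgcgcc
Klf3 (chr5:64803271-64803387, plus strand): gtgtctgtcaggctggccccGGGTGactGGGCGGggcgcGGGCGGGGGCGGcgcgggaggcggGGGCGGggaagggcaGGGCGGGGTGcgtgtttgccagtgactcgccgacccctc
Klf9 (chr19:23140976-23141225, plus strand): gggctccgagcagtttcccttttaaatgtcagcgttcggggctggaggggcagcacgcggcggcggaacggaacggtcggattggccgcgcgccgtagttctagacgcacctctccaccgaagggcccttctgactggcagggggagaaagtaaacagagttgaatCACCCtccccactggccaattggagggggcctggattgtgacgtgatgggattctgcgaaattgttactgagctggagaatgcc
Klf4 (chr4:55532476-55532725, minus strand): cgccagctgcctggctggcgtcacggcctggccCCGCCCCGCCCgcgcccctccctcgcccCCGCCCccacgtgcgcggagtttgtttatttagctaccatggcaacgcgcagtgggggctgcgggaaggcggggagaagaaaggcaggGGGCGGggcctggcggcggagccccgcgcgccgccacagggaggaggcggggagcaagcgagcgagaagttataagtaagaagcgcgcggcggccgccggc
Klf12, internal start (chr14:100149797-100150046, minus strand): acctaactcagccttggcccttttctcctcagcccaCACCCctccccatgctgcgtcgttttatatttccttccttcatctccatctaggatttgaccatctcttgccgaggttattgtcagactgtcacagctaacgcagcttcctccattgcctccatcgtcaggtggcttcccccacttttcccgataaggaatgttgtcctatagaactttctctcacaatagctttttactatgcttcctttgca
In the whole 300 bp window the promoters of *Klf2* (marked in 8 of the 10 libraries), *Klf3*, *Klf4* and *Klf9* held 32, 29, 40 and 28 CpG dinucleotides. Those of *Klf6* and *Klf13*, marked but not printed, held 23 and 32. The internal promoter of *Klf12*, the only unmarked one, held 6. The median of 32817 promoters in the table was 7. *Klf3* had the densest set of boxes, with 6 GC boxes and 5 CACCC boxes, *Klf4* had 4 GC boxes and no CACCC box, and *Klf9* had 1 CACCC box and no GC box. A CACCC box was present in 57.5% and a GC box in 35.6% of all promoters of this length, and each in 5 of the 7 members matched.

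All 10 promoters were marked in every Oct4+ and every DP library, and 8 of the 10 in every Pdgfra+ library. The 8 promoters were therefore marked in all 10 libraries, which held for 30.3% of the 14821 genes marked in any library. The members were chosen with earlier results of these data known, and 0 of 7 other KLF genes were marked in all 10 libraries. The counts therefore describe these members and not the KLF family. *Klf12* and *Klf2* were the exceptions. The consensus lists of the authors, made from the same libraries and so no separate evidence, gave the same counts, 10, 10 and 8. Most members ranked high among the peaks of their library.

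**Figure D1:**
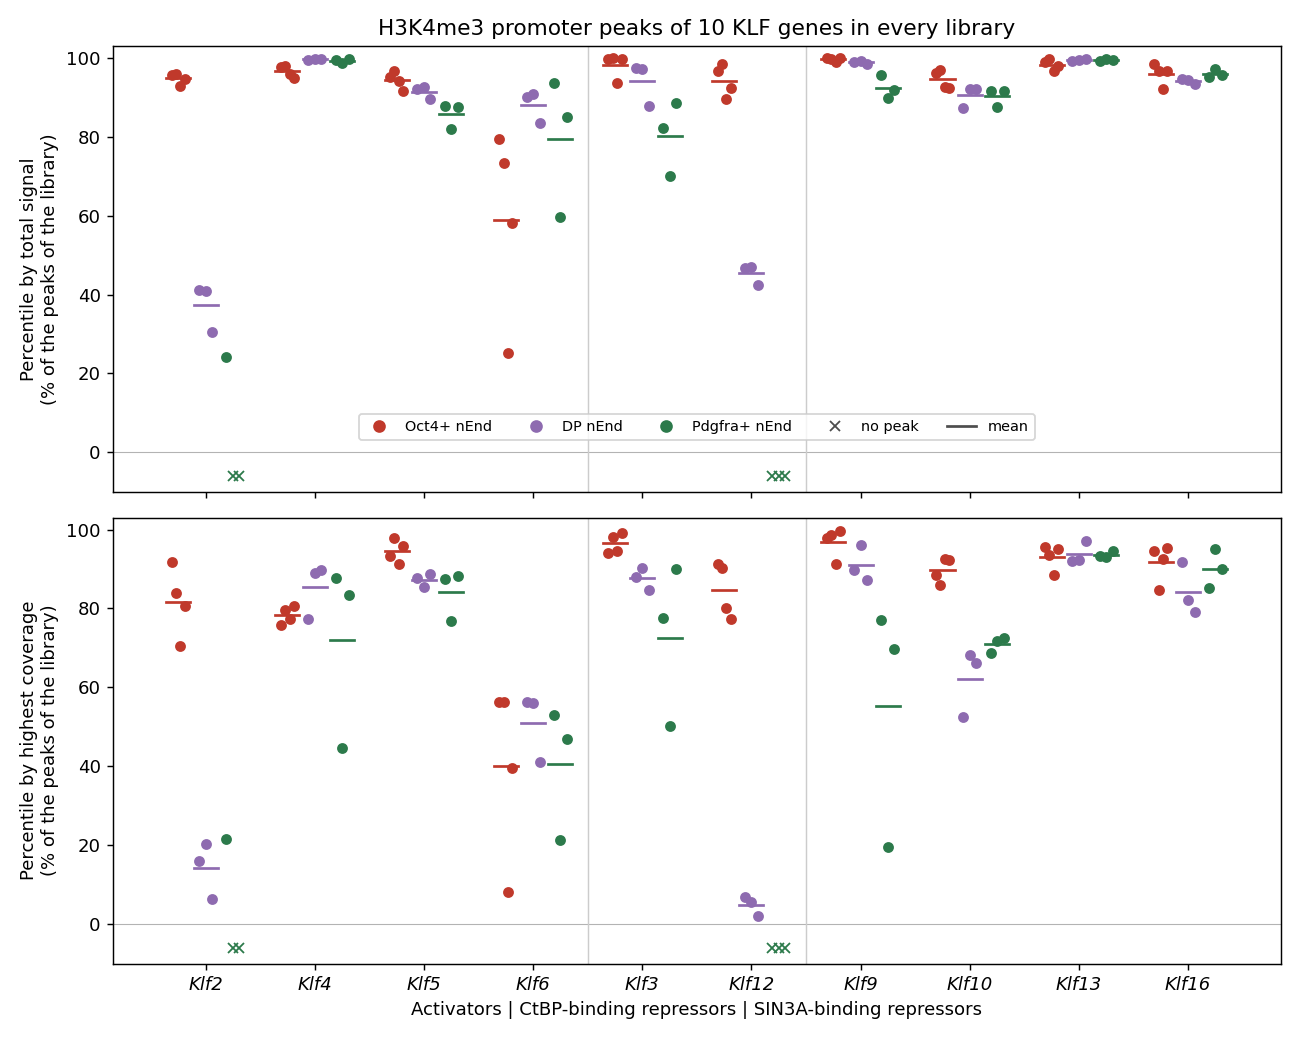
Percentile of the promoter peak among all peaks of its library, by total signal (upper panel) and by highest coverage (lower panel), for each KLF gene in 4 Oct4+, 3 DP and 3 Pdgfra+ nEnd libraries. Points are libraries, bars are means where every library had a peak, and crosses mark libraries with no peak. By total signal *Klf12* lies between 89.5 and 98.3 in Oct4+ and between 42.3 and 47.0 in DP nEnd, with *Klf2* alike, while *Klf4* lies between 95.0 and 99.7 throughout.

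Ranks were compared among the genes marked in every library of both populations, as normal scores. A score of 0 is the median gene, 1 is percentile 84.1 and 2 is percentile 97.7 of these genes. Differences were tested with limma across all these genes, with Benjamini-Hochberg adjustment and a threshold of 0.05. By total signal, 5 of the 8 members tested passed between Oct4+ and Pdgfra+ nEnd (4 higher in Oct4+, 1 higher in Pdgfra+), where 39.4% of 4487 genes passed, 19.1% higher in Oct4+ and 20.3% higher in Pdgfra+. Without Oct4+ replicate 3 4 passed, without Pdgfra+ replicate 3 only 3, and 3 with the replicate number as a block, a fit that drops Oct4+ replicate 4. Between Oct4+ and DP nEnd 8 of 10 passed (6 higher in Oct4+, 2 higher in DP), where 39.0% of 4924 genes passed, 19.3% higher in Oct4+ and 19.7% higher in DP. Without Oct4+ replicate 3 8 passed, and 5 without any 1 of the DP libraries. With percentiles taken among all peaks of a library in place of ranks among these genes, 2 of 8 passed against Pdgfra+ and 3 of 10 against DP nEnd. Between DP and Pdgfra+ nEnd limma called 0 of 8 members, where 0.0460% of 8691 genes passed. At an unadjusted p under 0.05 1129 genes differed there. The exact permutation test could call none, since 3 against 3 libraries allow no p below 0.1. The median difference of the members was 0.36, 0.49 and 0.18 in these 3 comparisons, against -0.06, -0.07 and -0.02 over all genes tested. The 3 comparisons share libraries and are not independent. The cells are bulk samples, so fewer cells with the mark and less mark per cell cannot be told apart.

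*Klf2* (chr8:72319033-72321656, plus strand), an activator that helps sustain naive pluripotency and is also known for endothelial quiescence, ranked high in Oct4+ nEnd and low in the other populations. Its peak stood at percentile 95.7, 95.8, 92.8 and 94.7 by total signal in Oct4+ replicates 1 to 4, and at 41.0, 40.8 and 30.4 in DP replicates 1 to 3. In Pdgfra+ nEnd only replicate 1 had a peak, at percentile 24.2. By total signal, with 0 where no peak, the populations did not overlap. The Oct4+ score was 2.77 ± 0.14 (SE) above DP (limma, adjusted p = 5.47e-06), and 2.56 to 2.82 with each library left out in turn. Against Pdgfra+ nEnd the percentile (0 where no peak) differed by an exact two-sided permutation test with p = 0.0286, the smallest that 4 against 3 libraries allow, and presence, 4 of 4 against 1 of 3, gave p = 0.143 by Fisher's exact test. Percentiles that do not overlap and are higher in Oct4+ than in Pdgfra+ nEnd occurred in 5.34% of 14747 genes. These genes include those without a peak in some Oct4+ library, which could not be higher in all of them.

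The summit of *Klf2* was also low in DP nEnd. By highest coverage it ranked at 91.8, 84.0, 70.4 and 80.7 in Oct4+ and at 16.0, 20.2 and 6.4 in DP nEnd, a score difference of 2.26 ± 0.27 (adjusted p = 9.18e-05, limma). Its width was 8053, 7657, 6870 and 9281 bp in Oct4+ and 5891, 5496 and 4625 bp in DP nEnd. The widths did not overlap, but the rank by width differed by 1.04 ± 0.31 and did not pass (limma, adjusted p = 0.163). The only Pdgfra+ peak was 2737 bp wide and stood at percentile 21.5 by highest coverage, above all 3 DP libraries. In all Oct4+ and DP libraries the peak covered the whole gene, which is 2624 bp long.

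*Klf4* (chr4:55527143-55532466, minus strand), a reprogramming factor and a target of LIF signaling, was marked near the top in every library and ranked higher outside Oct4+ nEnd. The percentile by total signal was 97.7, 97.9, 95.8 and 95.0 in Oct4+, 99.4, 99.7 and 99.7 in DP, and 99.5, 98.7 and 99.6 in Pdgfra+ nEnd. Every DP and Pdgfra+ library lay above every Oct4+ library. The Oct4+ score was 0.82 ± 0.16 below DP (difference -0.82, adjusted p = 0.00447) and 0.63 ± 0.18 below Pdgfra+ nEnd (difference -0.63, adjusted p = 0.0222, both limma). DP and Pdgfra+ nEnd differed by 0.14 (95% interval -0.22 to 0.50). The call against Pdgfra+ was lost without Oct4+ replicate 4 (adjusted p = 0.0608) or Pdgfra+ replicate 3 (adjusted p = 0.0921), with the replicate block (adjusted p = 0.0613), and when ranks were taken among all peaks of a library (adjusted p = 0.148).

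No difference of *Klf4* passed by highest coverage or by width. By highest coverage the percentile was 75.7, 79.6, 77.3 and 80.7 in Oct4+, 77.2, 89.0 and 89.7 in DP, and 87.8, 44.6 and 83.4 in Pdgfra+ nEnd, so the populations overlapped. Widths were 6666 to 7402 bp in Oct4+, 7571 to 8575 bp in DP and 5825 to 8480 bp in Pdgfra+ nEnd, and the peaks covered 72.6% to 100% of the gene.

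*Klf5* (chr14:99298691-99315036, plus strand), an activator needed in the early blastocyst, was higher in Oct4+ than in Pdgfra+ nEnd. The percentile by total signal was 95.0, 96.7, 94.2 and 91.5 in Oct4+, 92.1, 92.6 and 89.7 in DP, and 87.9, 82.0 and 87.6 in Pdgfra+ nEnd. Oct4+ and DP nEnd overlapped, and both lay above every Pdgfra+ library. Oct4+ exceeded Pdgfra+ nEnd by 0.82 ± 0.19 (adjusted p = 0.00934) and DP nEnd by 0.44 ± 0.16 (adjusted p = 0.0567, not passed, both limma). DP and Pdgfra+ nEnd differed by 0.28 ± 0.12, which did not pass either (limma, adjusted p = 0.411). The call against Pdgfra+ nEnd was kept with each library left out but not with ranks among all peaks (adjusted p = 0.190), and the comparison with DP passed in 4 alternatives: without Oct4+ replicate 1, with starts of protein-coding transcripts, with equal numbers of peaks, and in 1 fit over the genes marked in all 10 libraries (limma, adjusted p of 0.0299 to 0.0450). By highest coverage *Klf5* stood at 91.3 to 97.9 in Oct4+, 85.3 to 88.7 in DP and 76.8 to 88.2 in Pdgfra+ nEnd, which did not pass for any pair.

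*Klf6* (chr13:5861482-5870394, plus strand), a broadly expressed activator, varied widely between libraries. The percentile by total signal was 79.4, 73.4, 25.1 and 58.1 in Oct4+ replicates 1 to 4, 90.1, 90.8 and 83.6 in DP, and 93.7, 59.6 and 85.0 in Pdgfra+ nEnd. Every Oct4+ library lay below every DP library, while Pdgfra+ replicate 2 lay within the Oct4+ range. The Oct4+ score was lower than in DP by 0.97 ± 0.18 (difference -0.97, adjusted p = 0.00328) and the difference from Pdgfra+ nEnd was -0.71 ± 0.28 (adjusted p = 0.0645, both limma). The latter passed in 1 fit over the genes marked in all 10 libraries (adjusted p = 0.0364) and without Pdgfra+ replicate 2 (-1.05, adjusted p = 0.0120, both limma). It shrank to -0.43 without Oct4+ replicate 3 (adjusted p = 0.266) and -0.46 without Pdgfra+ replicate 1 (adjusted p = 0.222, both limma). The call against DP nEnd was lost with ranks among all peaks (limma, adjusted p = 0.125).

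*Klf12* (chr14:99870632-100284679, minus strand), a CtBP-binding repressor, was marked in Oct4+ and DP nEnd and not in Pdgfra+ nEnd. Its peak stood at percentile 96.7, 98.3, 89.5 and 92.4 by total signal in Oct4+ nEnd and at 46.7, 47.0 and 42.3 in DP nEnd, and no Pdgfra+ library had one. Presence in 4 of 4 Oct4+ and 0 of 3 Pdgfra+ libraries gave p = 0.0286 by Fisher's exact test, the smallest possible here. A mark in every Oct4+ and no Pdgfra+ library occurred in 0.915% of 14747 genes, and a mark in every Oct4+ and DP and no Pdgfra+ library in 0.304% of 14821 genes. Between DP and Pdgfra+ nEnd, 3 of 3 against 0 of 3 libraries, Fisher's exact test gave p = 0.1, again the smallest possible, and a mark in every DP and no Pdgfra+ library occurred in 0.376% of 14091 genes. The Oct4+ score was 2.56 ± 0.17 above DP (limma, adjusted p = 2.12e-05) and stayed between 2.42 and 2.61 with each library left out.

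In DP nEnd the *Klf12* peak had one of the lowest summits of the library. By highest coverage it ranked at 91.3, 90.3, 80.1 and 77.4 in Oct4+ and at 6.8, 5.7 and 2.1 in DP nEnd, a difference of 2.75 ± 0.27 (limma, adjusted p = 1.44e-05). Its width was 5960, 5987, 4665 and 6592 bp in Oct4+ and 5602, 5497 and 4362 bp in DP nEnd, which overlapped. The rank by width was 0.55 higher in Oct4+ nEnd (95% interval -0.11 to 1.21) and did not pass (limma, adjusted p = 0.440). All peaks lay over the 3 starts at the 5′ end of the gene and also covered the start of the noncoding *Gm41231*. The middle of the summit lay upstream of the first *Klf12* start in every library, at offsets of -1428.5 to -66 bp in Oct4+ and -1203.5 to -834.5 bp in DP nEnd, and the part of *Gm41231* in the mark was not tested. The 3 starts from 134915 to 384288 bp further in, including the one whose sequence is printed above, had no peak in any library.

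*Klf3* (chr5:64803388-64832901, plus strand), the other CtBP-binding repressor, carried a broad domain in most Oct4+ and DP libraries and a narrow one in Pdgfra+ nEnd. By total signal it stood at percentile 99.8, 99.9, 93.6 and 99.7 in Oct4+, 97.5, 97.1 and 87.7 in DP, and 82.2, 70.0 and 88.5 in Pdgfra+ nEnd. Every Oct4+ library lay above every Pdgfra+ library, while DP nEnd overlapped both. The Oct4+ score exceeded Pdgfra+ nEnd by 2.15 ± 0.33 (limma, adjusted p = 0.00112) and remained past the threshold with each library left out (adjusted p of 0.000328 to 0.00667). It exceeded DP nEnd by 1.16 ± 0.35 (limma, adjusted p = 0.0298), a call that was lost without Oct4+ replicate 1, 2 or 4 or DP replicate 2 or 3 (limma, adjusted p of 0.0577 to 0.114) and with percentiles among all peaks (0.90, adjusted p = 0.187).

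The *Klf3* domain also differed in length. The peak was 20834, 20249, 5611 and 20400 bp wide in Oct4+ replicates 1 to 4, 19110, 18410 and 4979 bp in DP, and 5062, 2234 and 3012 bp in Pdgfra+ nEnd. The rank by width was 2.78 ± 0.46 higher in Oct4+ than in Pdgfra+ nEnd (limma, adjusted p = 0.00284), and *Klf3* and *Klf9* were the 2 of 8 members that passed by width, both higher in Oct4+ nEnd, where 8.45% of genes did and 5.30% were higher in Oct4+. In Oct4+ replicate 3 and in DP replicate 3 the domain was split in 2, with a separate second peak of 7108 and 7290 bp. By highest coverage the second peak stood at percentile 58.4 in the former and at 0.0594 in the latter, among the lowest of that library. The second peak or the joined domain covered 3 starts 8951 to 8996 bp into the gene in 4 of 4 Oct4+, 3 of 3 DP and 0 of 3 Pdgfra+ libraries, which is a description chosen after the values were seen. DP nEnd exceeded Pdgfra+ nEnd in rank by width by 2.21 ± 0.54 (limma, adjusted p = 0.199, not passed), and the call passed without DP replicate 3 (difference 2.95, adjusted p = 0.0208), the library with the split domain. No start of another protein-coding gene lay in the domain, which also covered the starts of the noncoding *Gm20033* and *C230096K16Rik*.

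**Figure D2:**
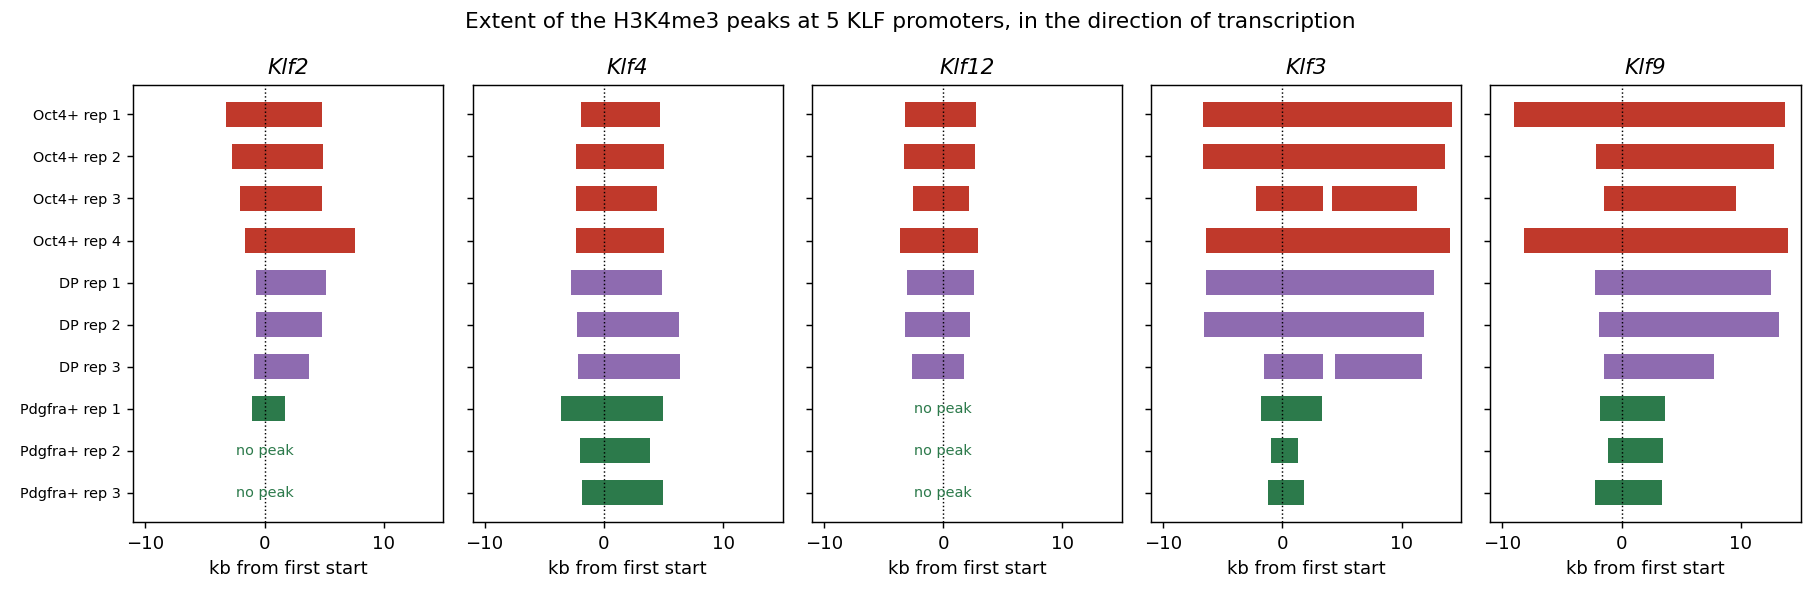
Extent of the promoter peaks in kilobases from the first annotated start, drawn in the direction of transcription, for 5 KLF genes. Each bar is a peak in 1 library (10 rows, coloured by population, both peaks shown where *Klf3* was split). The *Klf3* domain ends at most 3294 bp after the start in Pdgfra+ nEnd and, with its second part, covers the starts 8951 to 8996 bp into the gene in every other library. *Klf9* ends 7760 to 13921 bp after the start in Oct4+ and DP nEnd and at most 3642 bp after it in Pdgfra+ nEnd.

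*Klf9* (chr19:23141226-23168134, plus strand), a SIN3A-binding repressor that responds to glucocorticoid and thyroid hormones, showed the same order as *Klf3*. The percentile by total signal was 99.9, 99.8, 98.9 and 99.9 in Oct4+, 98.9, 99.2 and 98.4 in DP, and 95.8, 89.7 and 91.9 in Pdgfra+ nEnd. The Pdgfra+ libraries lay below all others. Oct4+ exceeded Pdgfra+ nEnd by 1.70 ± 0.21 (limma, adjusted p = 0.000385), and this held with each library left out. It exceeded DP nEnd by 0.74 ± 0.19 (adjusted p = 0.0157), which was lost without DP replicate 1 (adjusted p = 0.0541) or DP replicate 3 (adjusted p = 0.0650), and with percentiles among all peaks (0.58, adjusted p = 0.173, limma). DP exceeded Pdgfra+ nEnd by 0.81 ± 0.12 (limma, adjusted p = 0.0700, not passed).

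The *Klf9* domain was 22775, 14923, 11112 and 22094 bp wide in Oct4+, 14801, 15108 and 9221 bp in DP, and 5475, 4651 and 5682 bp in Pdgfra+ nEnd. Every Pdgfra+ library was narrower than every other, and the peak covered 12.7% to 13.5% of the gene there against 35.7% to 51.7% in Oct4+ nEnd. Against Pdgfra+ nEnd, Oct4+ nEnd was higher by 1.41 ± 0.41 in rank by width (limma, adjusted p = 0.0447), but this call was lost in 6 of the 7 fits that left out a library, all but the one without Pdgfra+ replicate 2 (limma, adjusted p of 0.0707 to 0.138 in the 6), with the replicate block (limma, adjusted p = 0.116) and with percentiles among all peaks (limma, adjusted p = 0.0775). By highest coverage *Klf9* stood at 97.9, 98.7, 91.3 and 99.7 in Oct4+, 89.8, 96.1 and 87.1 in DP, and 77.0, 19.5 and 69.8 in Pdgfra+ nEnd, with Oct4+ 2.28 ± 0.39 above Pdgfra+ nEnd (limma, adjusted p = 0.000277). The summit in Pdgfra+ replicate 2 was far below the others. The peaks held no start of another protein-coding gene. They covered that of *Mir1192* in every Oct4+ and DP library.

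*Klf10* (chr15:38291463-38300706, minus strand), a SIN3A-binding repressor induced by TGF-β, ranked at 96.2, 96.9, 92.5 and 92.4 by total signal in Oct4+, 87.4, 92.2 and 92.1 in DP, and 91.7, 87.5 and 91.6 in Pdgfra+ nEnd. The lowest Oct4+ library exceeded the highest of the others by a small margin. The score was 0.54 ± 0.16 above DP (adjusted p = 0.0250) and 0.55 ± 0.17 above Pdgfra+ nEnd (adjusted p = 0.0321, both limma). The first call was lost without DP replicate 1 or 2 and the second without Oct4+ replicate 2 or 3 or any 1 Pdgfra+ library (limma, adjusted p of 0.0563 to 0.110). With percentiles among all peaks both were lost, at 0.31 against DP (adjusted p = 0.324) and 0.33 against Pdgfra+ nEnd (adjusted p = 0.408, both limma). With the replicate block the second had an adjusted p of 0.0508 (limma). Its summits stood at percentile 88.6, 85.8, 92.6 and 92.4 in Oct4+, 52.4, 68.1 and 66.2 in DP, and 68.8, 71.8 and 72.5 in Pdgfra+ nEnd. By highest coverage Oct4+ exceeded DP nEnd by 1.33 ± 0.32 (limma, adjusted p = 0.0136), which was lost without DP replicate 1 (adjusted p = 0.0916) or 2 (adjusted p = 0.0544). Against Pdgfra+ nEnd the difference of 0.96 ± 0.39 did not pass (limma, adjusted p = 0.113).

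*Klf13* (chr7:63886351-63938915, minus strand) and *Klf16* (chr10:80567124-80577321, minus strand), both SIN3A-binding repressors, ranked high in all populations. *Klf13* stood at percentile 99.0, 99.6, 96.6 and 97.9 by total signal in Oct4+, 99.3, 99.4 and 99.6 in DP, and 99.3, 99.7 and 99.5 in Pdgfra+ nEnd. It did not pass for any pair or measure, and Oct4+ differed from Pdgfra+ nEnd by -0.34 (95% interval -0.86 to 0.17). *Klf16* stood at 98.3, 96.5, 92.1 and 96.6 in Oct4+, 94.6, 94.5 and 93.3 in DP, and 95.1, 97.0 and 95.5 in Pdgfra+ nEnd. The populations overlapped in all but DP against Pdgfra+ nEnd, and its score in Oct4+ exceeded DP by 0.40 ± 0.13 (limma, adjusted p = 0.0431), a call lost without Oct4+ replicate 1 or 4 or any 1 DP library (limma, adjusted p of 0.0670 to 0.144) and with percentiles among all peaks (0.23, adjusted p = 0.476). The replicate block ended it too, and *Klf16* kept this call in only 6 of 15 alternatives. Its peaks also covered the start of the noncoding *Gm26710* in every library.

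**Figure D3:**
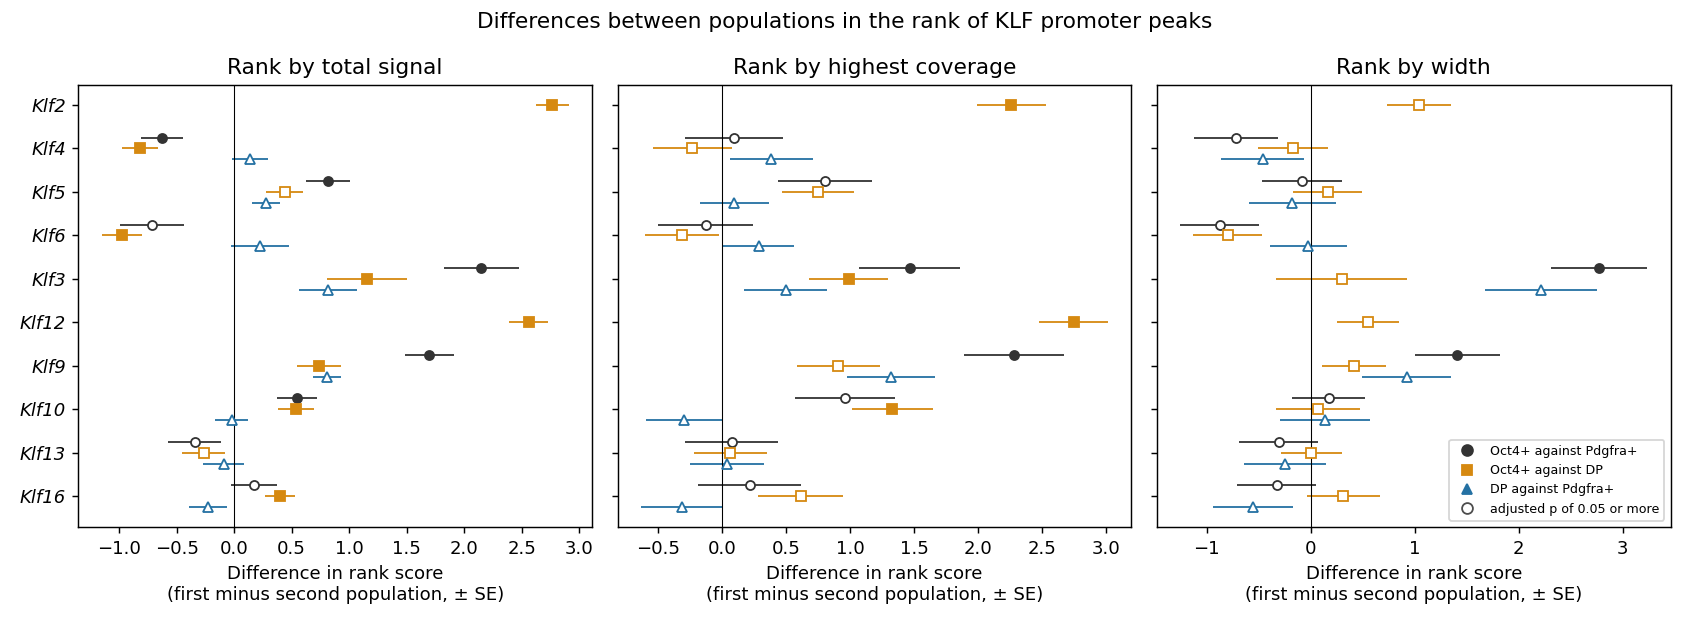
Difference in rank score between populations (first minus second) by total signal, highest coverage and width, with the standard error from limma. Filled symbols passed an adjusted p of 0.05, open symbols did not, and genes without a symbol lacked a mark in some library of the pair. *Klf2* and *Klf12* lie above 2 for Oct4+ against DP by total signal and by highest coverage, *Klf3* lies above 2 for Oct4+ against Pdgfra+ by total signal and width, and *Klf4* and *Klf6* lie below 0 for both Oct4+ comparisons by total signal.

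By highest coverage, 2 of 8 members passed between Oct4+ and Pdgfra+ nEnd (*Klf3* and *Klf9*), where 10.6% of genes did, 5.04% higher in Oct4+. Between Oct4+ and DP nEnd 4 of 10 passed (*Klf2*, *Klf3*, *Klf10* and *Klf12*), where 13.6% did, 6.95% higher in Oct4+. All of these were higher in Oct4+ nEnd. The first count fell to 1 without Oct4+ replicate 4 or Pdgfra+ replicate 1 or 2. The second fell to 2 without DP replicate 1 or 2 and was 6 without Oct4+ replicate 1, where *Klf5* (adjusted p = 0.0255) and *Klf9* (adjusted p = 0.0400, both limma) also passed. *Klf3* exceeded Pdgfra+ nEnd by 1.47 ± 0.40 (adjusted p = 0.0169) and DP nEnd by 0.99 ± 0.31 (adjusted p = 0.0450, both limma). The first was lost without Oct4+ replicate 4 or Pdgfra+ replicate 1 or 2 (limma, adjusted p of 0.0568 to 0.101), and the second in every fit that left out a library but the one without Oct4+ replicate 1. Both were lost with percentiles among all peaks (limma, adjusted p = 0.129 and 0.152). By width, 0 of 10 members passed between Oct4+ and DP nEnd in limma, where 0.284% of genes did and 724 genes had an unadjusted p under 0.05. Between DP and Pdgfra+ nEnd 0 of 8 passed in limma by highest coverage, where 0.0460% of genes did and 556 had an unadjusted p under 0.05. By width 0 of 8 passed there too, where 0.0345% of genes did and 736 had an unadjusted p under 0.05. The exact permutation test called 0 genes by width between Oct4+ and DP nEnd and could call none between DP and Pdgfra+ nEnd.

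Without regard to a model, percentiles by total signal that were all higher in Oct4+ than in Pdgfra+ nEnd (0 where no peak) were found for 6 members, *Klf2*, *Klf3*, *Klf5*, *Klf9*, *Klf10* and *Klf12*, against the 5.34% of genes given above. A gene could be higher in every library of a population only with a peak in each. All 10 members had this in Oct4+ and DP nEnd, but Oct4+ replicate 3 marked only 5140 genes. The shares are over genes marked in any library of the pair, so members and shares are not like for like. Genes without Oct4+ peaks also count toward the shares higher in the other populations. *Klf4* alone was higher in every Pdgfra+ library, which held for 18.0% of genes. Against DP nEnd 3 members (*Klf2*, *Klf10* and *Klf12*) were higher in every Oct4+ library, where 5.38% of genes were, and 2 (*Klf4* and *Klf6*) in every DP library, where 24.4% were. DP nEnd was above Pdgfra+ nEnd for 4 members (*Klf2*, *Klf5*, *Klf9* and *Klf12*), where 3.11% of genes were, and below it for *Klf16*, where 4.73% were. By highest coverage the same 6 members were higher in every Oct4+ than in every Pdgfra+ library, where 4.06% of genes were, and 0 were lower, where 11.1% were. Against DP nEnd 5 members (*Klf2*, *Klf3*, *Klf5*, *Klf10* and *Klf12*) were higher in every Oct4+ library, where 4.93% of genes were, and 0 in every DP library, where 17.4% were. DP nEnd was above Pdgfra+ nEnd for 2 members (*Klf9* and *Klf12*), where 2.39% of genes were, and below it for *Klf10*, where 2.84% were.

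Of the other members of the family on the list, *Klf1*, *Klf7*, *Klf8*, *Klf11*, *Klf14*, *Klf15* and *Klf17*, none was marked in all 10 libraries, and *Klf14* and *Klf17* had no peak in any. *Klf15*, a metabolic regulator singled out after its values were seen, had percentiles by total signal of 83.0 to 89.4 in Oct4+, 53.8 to 60.1 in DP and 11.9 to 29.2 in the 2 of 3 Pdgfra+ libraries that had a peak. Its score was 1.53 ± 0.16 higher in Oct4+ than in DP nEnd (limma, adjusted p = 0.000175). Of 9 Sp factors, the relatives that bind GC boxes, 3 were marked in all libraries, and *Sp2* was higher in Oct4+ than in Pdgfra+ nEnd by 0.85 ± 0.19 and *Sp1* by 0.81 ± 0.28 (limma, adjusted p = 0.00639 and 0.0435). *Sp3*, the third, did not differ past the threshold (0.0038 ± 0.20, limma, adjusted p = 0.992). *Sp8* and *Sp4*, which could not be tested against Oct4+ nEnd and did not pass between DP and Pdgfra+ nEnd, had lower percentiles in Oct4+ nEnd. *Sp8* had a peak in 1 of 4 Oct4+ libraries, at percentile 16.8, and in every DP (83.6 to 89.2) and Pdgfra+ library (94.5 to 97.5). *Sp4* had one in 2 of 4 Oct4+ libraries, at 60.8 and 66.6, and at 83.7 to 89.7 in all others. Of 6 corepressor genes 4 were marked in all libraries, and *Sin3a*, the partner of *Klf9*, *Klf10*, *Klf13* and *Klf16*, was lower in Oct4+ nEnd, by 0.83 ± 0.20 against Pdgfra+ nEnd (difference -0.83, limma, adjusted p = 0.00901).

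Of 12 genes of the naive network, 7 could be tested between Oct4+ and DP nEnd, with 4 higher in Oct4+ (*Pou5f1*, *Sox2*, *Nanog* and *Esrrb*) and 2 higher in DP (*Stat3* and *Socs3*). The 4 core pluripotency factors had no peak in any Pdgfra+ library, as *Klf12* did, and had differences of 2.94 to 4.13 against DP nEnd. *Socs3*, a feedback inhibitor of cytokine signaling, stood at percentiles 79.7 to 82.6 in Oct4+, 95.0 to 97.3 in DP and 96.0 to 98.1 in Pdgfra+ nEnd, and *Stat3*, a transcription factor, at 6.59 to 54.9, 56.6 to 61.4 and 48.9 to 77.4. Against Pdgfra+ nEnd 3 genes could be tested, with *Tbx3* higher in Oct4+ nEnd and *Stat3* and *Socs3* lower. The 5 genes tested in neither comparison, *Tfcp2l1*, *Gbx2*, *Prdm14*, *Zfp42* and *Dppa5a*, were marked in 3 or 4 of 4 Oct4+ libraries and in at most 1 of 3 Pdgfra+ libraries. In DP nEnd *Pou5f1* ranked at 62.2 to 72.4 by total signal but 6.81 to 8.45 by highest coverage, and *Sox2* at 21.2 to 40.4 and 1.07 to 3.77. The low summits of *Klf2* and *Klf12* in DP nEnd thus stood beside low summits of Epi markers, and the part of Oct4+ cells in the DP gate was not tested.

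The genes whose percentiles by total signal over the 10 libraries lay nearest to *Klf2*, by Euclidean distance with 0 where no peak, were *Bmp4*, a BMP ligand (distance 11.8), *Fanci*, a DNA repair gene (20.4), and *Zfp532*, a zinc finger gene (23.6). Like *Klf2*, *Bmp4* stood at 89.5 to 97.4 in Oct4+ and 31.5 to 45.4 in DP nEnd and had a peak in 1 Pdgfra+ library. Among the nearest to *Klf4* were *Lrrc41* and *Uqcrh*, which share 1 peak (1.96). Nearest to *Klf5* were *Hspa8*, a constitutive chaperone (6.27), *Tmeff1* (6.31) and *Cdc42se1* (6.98).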

How the data were processed

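H3K4me3 CUT&Tag of 4 Oct4+, 3 DP and 3 Pdgfra+ nEnd libraries was analysed from peak lists. Per the labels the authors used bcl2fastq 2.19.1, Bowtie2, SAMtools 1.12, deepTools, SEACR and bedtools 2.26.0 with build mm10. Peaks were called against IgG with the stringent setting, and consensus peaks with DiffBind. The deposited columns hold the total signal (summed coverage) and the highest coverage of each peak, unscaled, so the read depth is unknown and no interval of counting error was computed. The deposited consensus lists hold positions and a constant in place of a score, which was not used. Other marks and the reads were not analysed here.

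Normal scores of ranks by total signal, highest coverage and width were compared with limma 3.58.1 (lmFit, eBayes; R 4.3.3), in a separate fit for each of 3 pairs, with Benjamini-Hochberg adjustment over the genes marked in every library of the pair. Presence was compared by Fisher's exact test and percentiles of single genes by exact two-sided permutation. Tables were handled in Python 3.11.15 (pandas 2.3.3 with numpy 2.4.6), tests run with scipy 1.17.1 and plots drawn with matplotlib 3.10.9, and the overlap search and the fit were tested on simulated data. The members, gene lists and tests were chosen with earlier results of these data known. All 10 members were named, with genes of the lists that passed or separated populations and the 3 nearest patterns of *Klf2*, *Klf4* and *Klf5*, of which 1 is not reported here. Alternatives were windows of 2500 bp on each side, a peak over 50% of the window, starts of protein-coding transcripts, the consensus lists for presence, equal numbers of peaks (3477), percentiles among all peaks, 1 fit over the genes marked in all 10 libraries, a replicate block, an exact permutation test and each library left out. Deviations of same-numbered libraries from their group means correlated at 0.14 to 0.24 for all 3 pairs of Oct4+ and Pdgfra+ libraries. The numbers were therefore taken, from the data and not the labels, to pair these. The main fits left this pairing out, and blocked values that change a call stand beside the results. In the other 2 comparisons replicate 2 gave -0.10 and -0.11.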

Additional observations from a re-analysis of the deposited data

Results flagged for a closer look

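In 4 of 30 groups looked at (10 members by 3 measures in the 4 Oct4+ libraries), 1 library lay far from the other 3 by Dixon's criterion, which chance gives in about 1 of 20 groups. All 4 were the lowest value and belonged to replicate 3, the library with the fewest peaks. The groups share libraries, and *Klf3* was flagged by total signal and by width of the same peak. The rate also assumes normal values, which percentiles near 100 are not. The count therefore cannot be set against that rate. *Klf3* stood at percentile 93.6 by total signal there and at 99.7 to 99.9 in the others, and its peak was 5611 bp wide against 20249 to 20834 bp. *Klf9* stood at percentile 98.9 against 99.8 to 99.9. The *Klf13* peak was 5500 bp wide against 6707 to 6936 bp.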

How the results depend on the processing

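Of 639 alternative values of 44 member differences, 547 kept their direction and their side of the threshold, 76 fell short of it, 11 newly passed and 5 reversed. The 5 reversed values belong to differences between DP and Pdgfra+ nEnd that did not pass. *Klf6* gave -0.054 without Pdgfra+ replicate 2 (-0.054 to 0.44 over the libraries left out), *Klf13* 0.047 without it (-0.24 to 0.047), and *Klf10* 0.020 among all peaks, 0.072 without DP replicate 1 and 0.037 without Pdgfra+ replicate 3 (-0.10 to 0.072). With percentiles among all peaks, which move with the number of peaks called, Oct4+ against Pdgfra+ nEnd kept 2 members by total signal (249 of 4487 genes called, against 1768), 1 by highest coverage (80 genes against 474) and 1 by width (150 genes against 379). Oct4+ against DP nEnd kept 3 by total signal (390 genes called, against 1918). By highest coverage 300 genes were called there, against 670. The exact permutation test called 0 members in these and in Oct4+ against DP by highest coverage, since its smallest p of 0.0286 cannot pass the adjustment unless many genes reach it, and with 3 against 3 libraries no p can be below 0.1. Equal numbers of peaks and 1 fit over the genes marked in all 10 libraries each left 2 of 8 members by highest coverage between Oct4+ and DP nEnd, where *Klf2* and *Klf12* could not be tested. With each library left out, the members that passed between Oct4+ and Pdgfra+ nEnd numbered 3 to 5 by total signal, 1 to 2 by highest coverage and 1 to 2 by width. Between Oct4+ and DP nEnd they numbered 5 to 8 by total signal and 2 to 6 by highest coverage, and between DP and Pdgfra+ nEnd 0 to 1 by width. The lowest count by total signal was 3 without Pdgfra+ replicate 3 and 5 without any 1 DP library. The counts of members marked in every library (10, 10 and 8) did not move by over 1.5 times in any alternative.

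With the replicate number as a block, which drops Oct4+ replicate 4, 3 members passed by total signal and 1 by width between Oct4+ and Pdgfra+ nEnd (217 genes called by width, against 379). Between the other populations the libraries share only a number: same-number correlations were -0.11 to 0.21, and the own number was not the best match for replicate 2. The block gave 7 members by total signal and 3 by highest coverage between Oct4+ and DP nEnd, where *Klf16* (limma, adjusted p = 0.138) and *Klf3* by highest coverage (0.0919) were lost, and 1 (*Klf3*) by width between DP and Pdgfra+ nEnd (23 genes against 3). Beside these and the calls of *Klf4*, *Klf10* and the width of *Klf9* against Pdgfra+ nEnd, it ended no call of a member. With equal numbers of peaks 1083 of 2922 genes were called between Oct4+ and Pdgfra+ nEnd by total signal, 309 by highest coverage and 138 by width, and in 1 fit over all libraries 39 (against 4) by total signal and 21 by width between DP and Pdgfra+ nEnd. The cause of these changes was not tested.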
